A study of Homo sapiens with 48 samples.

Results

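GLIS3, its GLIS and GLI relatives and the core components of Hedgehog signalling were followed in human fibroblasts in which GLIS3 was either cut or activated, to ask whether the RNA of any relative moved when GLIS3 did. The set held 10 of the 29744 genes in the deposited tables, chosen by name: the zinc finger factors GLIS3, GLIS2, GLIS1, GLI1, GLI2 and GLI3, and the Hedgehog components PTCH1, SMO, SUFU and HHIP. The rule names genes and uses no measured value, but the set was proposed with earlier results of these data known. RNA of 9 members was detected in at least 1 of 48 libraries and 5 passed the filter on low counts, so tests were possible for GLIS3, GLIS2, GLI2, GLI3 and SUFU.

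The cells were CRL-4001, a line of human skin fibroblasts immortalised with telomerase, and carried an mNeonGreen reporter at IL11, a cytokine gene of activated fibroblasts. H47_Ctrl and H47_KO cells also carried Cas9 and received, by lentivirus, a control guide described as non-targeting, which has 1 matching genomic site given below, or a guide to GLIS3 (CRISPRko). VP64_Ctrl and VP64_A cells carried dCas9–VP64, a Cas9 that does not cut fused to a transcriptional activator, with such a control guide, which has 0 matching sites, or a guide to the GLIS3 promoter (CRISPRa). Each group was stimulated with TGFβ and IL-1β together for 0, 6, 12 or 24 h, with 3 libraries per condition. All cells came from clones of 1 line and were kept as drug-selected bulk populations, so a library averaged over cells with different edits or different guide activity, and p-values below measure the spread between libraries of that line. The study describes its cell culture replicates in general as biologically independent, and the labels do not say how the 3 libraries of a condition were grown.

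The labels of the CRISPRa arm contradicted each other, because titles and descriptions named opposite groups as the control. The groups were named here by the descriptions. GLIS3 RNA was high in the 12 libraries described as VP64_A, which the titles call control, and low in the 12 described as VP64_Ctrl, which is the direction an activating guide is designed to give. Under the titles the cells with the activating guide would hold the lower GLIS3 RNA, and every CRISPRa difference below would change its sign. The CRISPRko titles and descriptions named the same groups.

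Depth set the precision, since most members were rare. Estimated counts per library summed to between 2485059 and 6750532 (median 4458155) in H47_Ctrl, 2761335 and 8542400 (median 5476646) in H47_KO, 2321990 and 9971965 (median 5273520) in VP64_Ctrl, and 3197084 and 10661004 (median 5338274) in VP64_A. A count of 0 in a single library allowed up to 3 counts, which is a level of 0.281 to 1.29 CPM (counts scaled to the library total) depending on the library. Floors and the intervals of pooled CPM cover counting error only, while those of fold changes come from the edgeR fit over libraries.

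The third VP64_Ctrl library at 0 h stood apart. Its fibroblast markers summed to 15840 TPM, the lowest of the 48 libraries, against 23356 and 25150 in the other 2 of its condition, while its markers of smooth muscle (94.5 TPM), its cilium genes (145 TPM) and its genes around GLIS3 (9.45 TPM) summed to the highest values of the 48. It also held the highest GLIS3 (1.38 TPM) and SUFU (4.95 TPM) of VP64_Ctrl and 16 of the 41 PTCH1 counts there. Without it GLIS3 stood at a log2 fold change of 3.04 in VP64_A over the times and 3.57 at 0 h, both called. The number of other tested members called stayed at 0. The fall of GLIS2 at 12 h in VP64_Ctrl was not called without it (log2 fold change -1.43, edgeR adjusted p = 0.0815), nor were the rises of KIF3B (0.31) and FAP (0.20) in VP64_A. The third H47_KO library at 0 h was also above the other 2 of its condition in cilium genes (128 against 69.3 and 74.2 TPM). Its genes around GLIS3 summed to 5.68 against 1.86 and 2.97 TPM, and its fibroblast markers to 21979 against 23239 and 26356 TPM.

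GLI and GLIS proteins are related Krüppel-like zinc finger factors with similar DNA-binding domains, and GLI1, GLI2 and GLI3 are the transcriptional end of the Hedgehog pathway. In that pathway a Hedgehog ligand binds the receptor PTCH1, which then releases SMO, and SMO signalling at the primary cilium frees GLI proteins from their inhibitor SUFU. PTCH1, HHIP and GLI1 are themselves target genes and act as common readouts of pathway activity. GLIS factors are not part of the core pathway, and GLIS3 is best known from pancreatic beta cells, thyroid and kidney.

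The guides show where GLIS3 was perturbed. For the CRISPRko guide alone, the coding sequences of the GLIS and GLI relatives were also searched for near matches. Near matches of the CRISPRa guide at the promoters of relatives were not sought. GLIS3 lies on the minus strand at chr9:3824127-4348392 (GRCh38, as are all coordinates here). The CRISPRko guide matched 1 site in the genome, chr9:4117887-4117906, in coding exon 4 of 11 of the canonical transcript. The CRISPRa guide matched 1 site, chr9:4300157-4300176, 89 bases upstream of the start of that transcript, within GLIS3 and its antisense gene GLIS3-AS2. Both are written 5′ to 3′ without the NGG motif.
GLIS3 CRISPRko guide: ccacatcgaccagcgcaaag
GLIS3 CRISPRa guide: cactaggctggccaattcga
The CRISPRko control guide matched 1 site with an NGG motif, in SBNO1, and the CRISPRa control guide matched 0.

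The nearest counterpart of the CRISPRko site in the coding sequence of each GLIS and GLI relative is shown because a guide that also cut a relative would confound the comparison. Capitals mark bases that differ from the guide, and the last 3 bases are the NGG motif.
GLIS3: ccacatcgaccagcgcaaagggg
GLIS2: ccCcGAGCGccagGgcaaCgggg
GLIS1: ccaGatcTCccGTcAGaGGgggg
GLI1: ccacCCcgGGcagAgTCaTgggg
GLI2: ccGGTtcgaGcagcTcaaGAagg
GLI3: cGacaGcCaTGaCcTGGaagggg
The GLI2 sequence (chr2:120986502-120986524) had the fewest differences, 7. The GLIS2 (chr16:4333471-4333493) and GLI1 (chr12:57465187-57465209) sequences had 8, and those in GLIS1 (chr1:53594563-53594585) and GLI3 (chr7:41964569-41964591) had 9. GLIS2, GLI1 and GLI3 each held further sites with as few differences, 2, 5 and 6 sites in all. No stretch of 31 bases was shared between the transcripts of any pair of the 10 members. How the counting divided reads between them was not tested.

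GLIS3 itself was checked first. TPM values are transcript abundances corrected for length and set to 1 total in each library, so that levels can be compared between genes. In the 3 H47_Ctrl libraries GLIS3 stood at 0.447, 0.325 and 0.509 TPM at 0 h, 1.79, 1.68 and 0.738 at 6 h, 0.749, 0.742 and 0.370 at 12 h, and 0.444, 0.476 and 0.778 at 24 h. In H47_KO it stood at 0.0683, 0.0303 and 0.132 TPM at 0 h, 0.225, 0.217 and 0.271 at 6 h, 0.240, 0.177 and 0.297 at 12 h, and 0.191, 0.320 and 0.548 at 24 h. On CPM normalized between libraries (TMM), all H47_KO libraries lay below all H47_Ctrl libraries of the same time. They held between 1 and 21 GLIS3 counts each.

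Averaged over the 4 times, GLIS3 RNA was 0.311-fold of control in H47_KO (95% interval 0.219 to 0.443; log2 fold change -1.68 ± 0.25 SE; edgeR adjusted p = 5.71e-05), in a comparison that called 3.07% of 10962 genes. Taken time by time the log2 fold change was -2.55 at 0 h, -1.80 at 6 h, -1.21 at 12 h and -1.17 at 24 h. The edgeR call was made at 0 h alone (adjusted p = 0.0355), and the adjusted p was 0.0925, 0.507 and 0.383 at the later times. The 0 h call was fragile: it was lost without the filter (adjusted p = 0.0503), on TPM (adjusted p = 0.985 and 0.463 at pseudocounts of 1 and 0.1) and in 5 of the 6 fits that left out 1 of its libraries, every one but the third of H47_KO (log2 fold change -2.85 to -2.23 over the 6). The share of all genes called was 0.301%, 0.319%, 0.0821% and 0.210% at 0, 6, 12 and 24 h. An edited transcript can persist, and the reads cover the whole gene, so these values measure GLIS3 RNA and not how many cells lost the protein. The counting strand is not given in the sources used here, so reads of GLIS3 and its antisense gene cannot be told apart. In bulk libraries fewer expressing cells and less RNA per cell cannot be told apart.

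In VP64_Ctrl, GLIS3 stood at 0.630, 0.417 and 1.38 TPM at 0 h, 0.800, 0.924 and 0.469 at 6 h, 0.663, 0.696 and 0.464 at 12 h, and 0.925, 0.586 and 0.838 at 24 h. In VP64_A it stood at 4.72, 5.69 and 6.35 TPM at 0 h, 8.74, 4.49 and 8.60 at 6 h, 4.44, 5.42 and 3.42 at 12 h, and 4.67, 4.58 and 3.87 at 24 h. The lowest VP64_A library, at 3.42 TPM, was above the highest VP64_Ctrl library, at 1.38. GLIS3 was 8.30-fold higher in VP64_A over the 4 times (95% interval 6.97 to 9.88; log2 fold change 3.05 ± 0.12 SE; edgeR adjusted p = 5.22e-19), and 18.4% of 10980 genes were called in that comparison. It passed at all 4 times, with log2 fold changes between 2.71 and 3.61, where 9.41%, 3.76%, 4.31% and 4.13% of genes were called at 0, 6, 12 and 24 h.

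**Figure D1:**
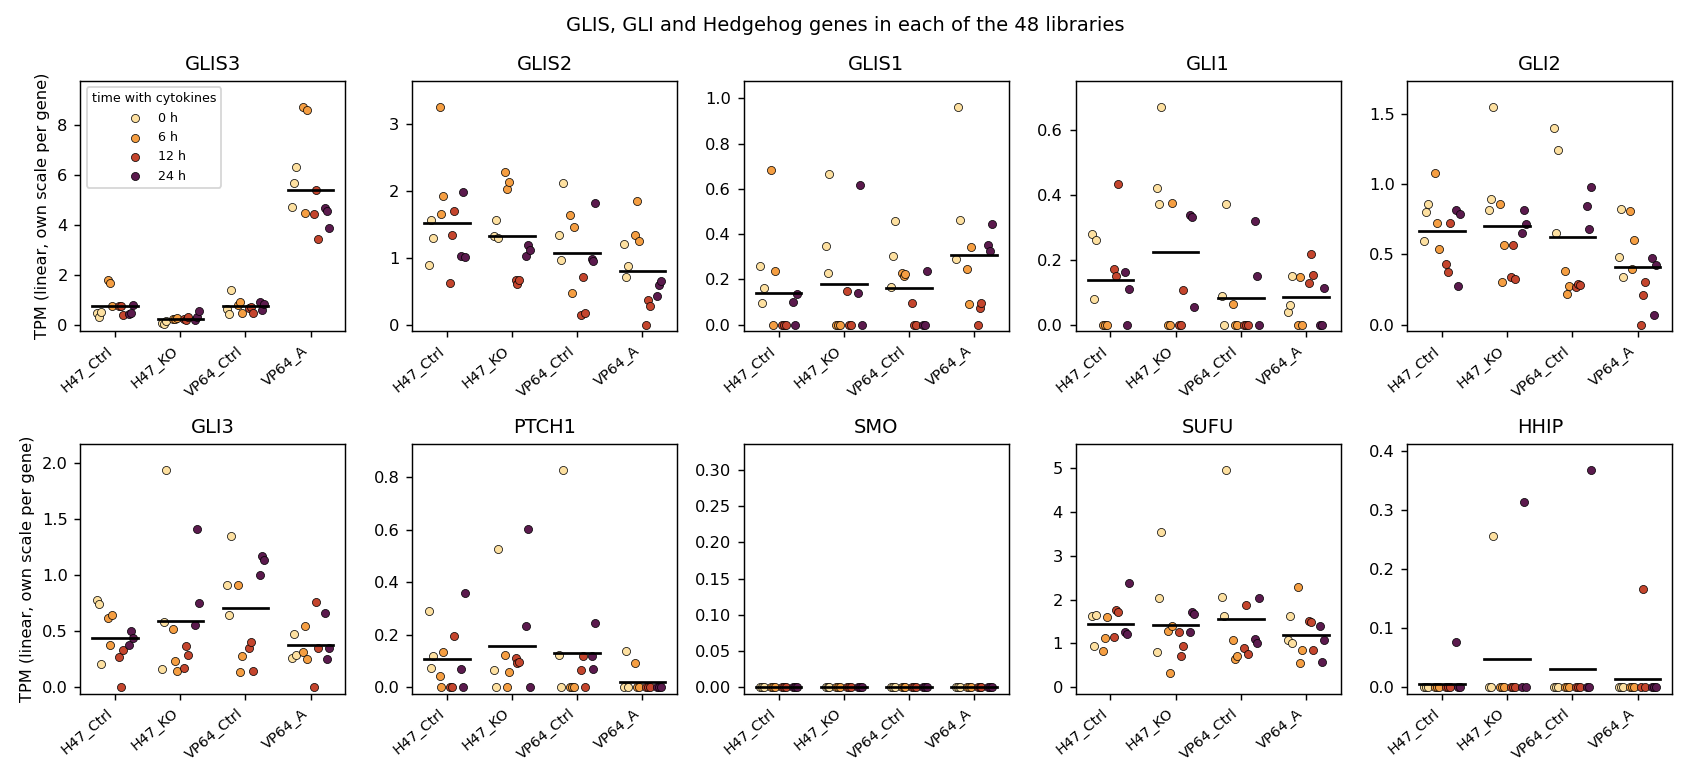
Level of each of the 10 members in each of the 48 libraries as TPM, on a linear scale of its own per gene, by group of cells; points are libraries coloured by time, and bars are means of 12 libraries. GLIS3 is lowest in H47_KO, at 0.0303 to 0.548 TPM, a range that overlaps that of H47_Ctrl, at 0.325 to 1.79 TPM. It is highest in VP64_A, at 3.42 to 8.74 TPM, above all VP64_Ctrl libraries. The other members' libraries overlap between the groups of each arm, and SMO lies at 0.

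The members differed widely in level. In H47_Ctrl the order by mean TPM over 12 libraries was GLIS2 (1.52 ± 0.69 SD), SUFU (1.44 ± 0.43), GLIS3 (0.754 ± 0.485), GLI2 (0.668 ± 0.230), GLI3 (0.441 ± 0.230), GLIS1 (0.139 ± 0.195), GLI1 (0.137 ± 0.136), PTCH1 (0.107 ± 0.120) and HHIP (0.00636 ± 0.0220), with SMO at 0. Every pair of neighbours in that order overlapped in range. GLIS2 thus had the higher mean of the GLIS factors in these control cells, within overlapping ranges. In VP64_A GLIS3 led the order at 5.42 ± 1.71 TPM, and its range did not overlap that of the next member, SUFU (1.19 ± 0.50). In H47_KO it stood at 0.226 ± 0.133 TPM, below GLI3 (0.596 ± 0.553) and beside GLI1 (0.223 ± 0.224).

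GLIS2, at chr16:4314761-4339597, encodes another GLIS factor, known from the kidney and the primary cilium. Over 12 libraries its lowest, median and highest values were 0.621, 1.45 and 3.26 TPM in H47_Ctrl and 0.613, 1.25 and 2.29 TPM in H47_KO. In VP64_Ctrl they were 0.138, 0.982 and 2.13 TPM, and in VP64_A 0, 0.681 and 1.86 TPM. The groups overlapped in both arms. Averaged over the times, GLIS2 was 0.870-fold of control in H47_KO (95% interval 0.644 to 1.17; log2 fold change -0.20, edgeR adjusted p = 0.710). In VP64_A it was 0.830-fold of VP64_Ctrl (0.565 to 1.22; log2 fold change -0.27, adjusted p = 0.562).

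The comparison of GLIS2 at single times included groups that did not overlap and still did not pass. At 6 h it stood at 6.52, 7.43 and 6.13 normalized CPM in H47_KO and 5.61, 4.58 and 5.40 in H47_Ctrl, each H47_KO library above each control (log2 fold change 0.35 ± 0.40 SE, edgeR adjusted p = 0.792). At 24 h the direction was the other way on average, at 2.60, 2.43 and 1.79 normalized CPM in H47_KO against 2.66, 5.61 and 2.38 in H47_Ctrl (-0.57 ± 0.44 SE, adjusted p = 0.688). In the CRISPRa arm the groups separated at 24 h, at 1.31, 1.72 and 1.90 normalized CPM in VP64_A and 2.54, 2.27 and 3.96 in VP64_Ctrl (-0.85 ± 0.52 SE, adjusted p = 0.489).

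GLIS1, at chr1:53506237-53739164, is the third GLIS factor and is known for promoting reprogramming to pluripotency. It was near the limit of detection. All 12 libraries together held 15 counts in H47_Ctrl, 20 in H47_KO, 22 in VP64_Ctrl and 43 in VP64_A. Pooled, these were 0.285 CPM (exact Poisson 95% interval 0.160 to 0.471), 0.307 CPM (0.188 to 0.475), 0.321 CPM (0.201 to 0.487) and 0.631 CPM (0.457 to 0.850). The VP64_A value was the highest, and its interval overlapped that of VP64_Ctrl. At 0 h the libraries described as VP64_A held 6, 13 and 5 counts and those described as VP64_Ctrl 3, 6 and 3. In normalized CPM the groups separated there, at 24 h in the same arm (3, 2 and 6 counts in VP64_A against 0, 0 and 3) and at 0 h under CRISPRko (4, 3 and 6 in H47_KO against 3, 1 and 1), each time with the perturbed libraries higher and on counts too low to read. GLIS1 did not pass the filter, and edgeR without the filter did not call it in the mean over times (adjusted p = 0.434). Under CRISPRko, H47_Ctrl at 12 h and H47_KO at 6 h held 0 counts in every library. The mean over times is therefore not a usable test of GLIS1 in that arm.

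GLI1, at chr12:57459785-57472268, is the GLI factor most directly switched on by Hedgehog signalling. The pooled libraries held 15 counts (0.285 CPM, 95% interval 0.160 to 0.471) in H47_Ctrl and 33 (0.507 CPM, 0.349 to 0.713) in H47_KO. They held 12 (0.175 CPM, 0.0906 to 0.306) in VP64_Ctrl and 15 (0.220 CPM, 0.123 to 0.363) in VP64_A. The intervals overlapped within each arm. The counts were uneven over time, with 6, 6 and 8 in the H47_KO libraries at 0 h, where H47_Ctrl had 4, 1 and 2, and 0 in all 3 H47_Ctrl libraries at 6 h. In normalized CPM the H47_KO libraries at 0 h (1.06, 0.865 and 1.05) lay above those of H47_Ctrl (0.540, 0.161 and 0.540). At 12 h they lay below, with 0, 0 and 1 counts against 1, 1 and 3, and VP64_A had 1, 4 and 2 counts there against 0 in all 3 VP64_Ctrl libraries. Without the filter edgeR called GLI1 between the groups at no single time in either arm (lowest adjusted p = 0.359, at 12 h under CRISPRa), and groups with 0 in every library left its mean over times without a usable test.

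GLI2, at chr2:120735623-120992653, is the main activator among the GLI factors. Its lowest, median and highest values were 0.277, 0.726 and 1.08 TPM in H47_Ctrl, 0.301, 0.684 and 1.55 in H47_KO, 0.217, 0.515 and 1.40 in VP64_Ctrl, and 0, 0.410 and 0.825 in VP64_A. The groups overlapped over all times. At 0 h alone the H47_KO libraries, at 4.07, 4.33 and 4.48 normalized CPM, were all above those of H47_Ctrl, at 2.30, 3.22 and 3.51, and edgeR did not call the difference (log2 fold change 0.53 ± 0.39 SE, adjusted p = 0.655). In the CRISPRa arm the groups separated at 6 h and at 24 h, in opposite directions. At 6 h GLI2 stood at 3.33, 2.35 and 3.36 normalized CPM in VP64_A and 1.72, 1.26 and 1.74 in VP64_Ctrl (0.93 ± 0.56, edgeR adjusted p = 0.515). At 24 h it stood at 2.61, 0.343 and 2.21 in VP64_A and 3.89, 2.92 and 3.83 in VP64_Ctrl (-0.97 ± 0.52, adjusted p = 0.396). Over the 4 times GLI2 was 1.02-fold of control in H47_KO (95% interval 0.752 to 1.40, adjusted p = 0.960) and 0.814-fold in VP64_A (0.554 to 1.20, adjusted p = 0.512).

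GLI3, at chr7:41960949-42264100, is chiefly a repressor when no Hedgehog ligand is present. It ranged from 0 through a median of 0.409 to 0.776 TPM in H47_Ctrl and from 0.146 through 0.446 to 1.94 TPM in H47_KO. In VP64_Ctrl the lowest, median and highest values were 0.137, 0.780 and 1.35 TPM, and in VP64_A 0, 0.332 and 0.761. In the mean over times GLI3 had the largest point estimate among the tested relatives in each arm and passed in neither: 1.20-fold in H47_KO (95% interval 0.757 to 1.92, edgeR adjusted p = 0.755) and 0.707-fold in VP64_A (0.481 to 1.04, adjusted p = 0.223). At 0 h its values were 1.46, 2.52 and 1.65 normalized CPM in VP64_A and 4.30, 3.31 and 4.19 in VP64_Ctrl. The groups did not overlap there, and the log2 fold change of -1.07 ± 0.50 (SE) had an adjusted p of 0.197. They did not overlap at 24 h either, at 4.70, 1.72 and 2.37 normalized CPM in VP64_A and 5.98, 6.48 and 5.75 in VP64_Ctrl (-1.03 ± 0.52, edgeR adjusted p = 0.358).

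SUFU, at chr10:102503972-102633535, encodes the inhibitor that holds GLI proteins in the cytoplasm. It is a Hedgehog component and was the most abundant member after GLIS3 over all 48 libraries (mean 1.40 TPM). The lowest, median and highest values were 0.824, 1.43 and 2.38 TPM in H47_Ctrl and 0.332, 1.28 and 3.55 TPM in H47_KO. They were 0.642, 1.08 and 4.95 TPM in VP64_Ctrl and 0.544, 1.08 and 2.29 TPM in VP64_A. SUFU was 0.963-fold of control in H47_KO (95% interval 0.707 to 1.31, edgeR adjusted p = 0.938) and 0.974-fold in VP64_A (0.732 to 1.30, adjusted p = 0.933).

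The 3 membrane members lay at or near 0. PTCH1 (chr9:95442980-95517057), the Hedgehog receptor and a target gene, had 29 counts over the 12 libraries of H47_Ctrl, 45 in H47_KO, 41 in VP64_Ctrl and 7 in VP64_A. It was detected in 2 of 12 VP64_A libraries, where it pooled to 0.103 CPM (95% interval 0.0413 to 0.212), and in 7 of 12 VP64_Ctrl libraries, where it pooled to 0.599 CPM (0.430 to 0.813). These intervals did not overlap, and without the third VP64_Ctrl library at 0 h the VP64_Ctrl libraries pooled to 25 counts in 6 of 11 (0.386 CPM, 0.25 to 0.569), still above the interval of VP64_A. At 24 h PTCH1 had 4, 1 and 9 counts in VP64_Ctrl and 0 in all 3 VP64_A libraries, and edgeR without the filter did not call that difference (adjusted p = 0.148). Groups with 0 in every library left the mean over times without a usable test. HHIP (chr4:144646156-144745271), a ligand-binding antagonist and target gene, had 1, 5, 6 and 3 counts in H47_Ctrl, H47_KO, VP64_Ctrl and VP64_A, in 5 of 48 libraries in all.

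SMO (chr7:129188633-129213545), the signal transducer of the pathway, was listed at 0 in all 48 libraries. A count of 0 over the total of 254189403 counts allows up to 3, or 0.0118 CPM. Of 17739 protein-coding symbols in the table, 3791 (21.4%) were likewise at 0 in every library, while 8 of 8 reference genes such as ACTB and TBP were above 0 in all. Whether the 0 of SMO reflects the cells or the annotation used for counting was not tested.

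None of the 4 other tested members, GLIS2, GLI2, GLI3 and the Hedgehog component SUFU, was called by edgeR in H47_KO or in VP64_A. This held in the mean over times and at each single time. The number with an unadjusted p under 0.05 was 0 in every CRISPRko comparison and in the CRISPRa mean over times. At single times in CRISPRa it was 1, GLI3 at 0 h. Over all genes 1771 of 10962 and 3316 of 10980 had an unadjusted p under 0.05 in the 2 means over times, where 3.07% and 18.4% were called. The 0 of 4 thus lies near the background and is not a result about these members. DESeq2 called 0 of 4 in each CRISPRa comparison. In CRISPRko it gave an adjusted p only for GLIS2 and SUFU in the mean over times and at 24 h, and called neither. It gave none of the 4 an adjusted p at 0, 6 and 12 h. The width of the intervals limits what this shows: in H47_KO, where GLIS3 fell to 0.311-fold, the 95% interval of the mean over times left room for a rise of GLIS2 to at most 1.17-fold, SUFU to 1.31-fold, GLI2 to 1.40-fold and GLI3 to 1.92-fold. At single times the intervals were wider and reached a log2 fold change of 2.09 for GLI3. A change in protein or in activity without a change in RNA was not measured.

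**Figure D2:**
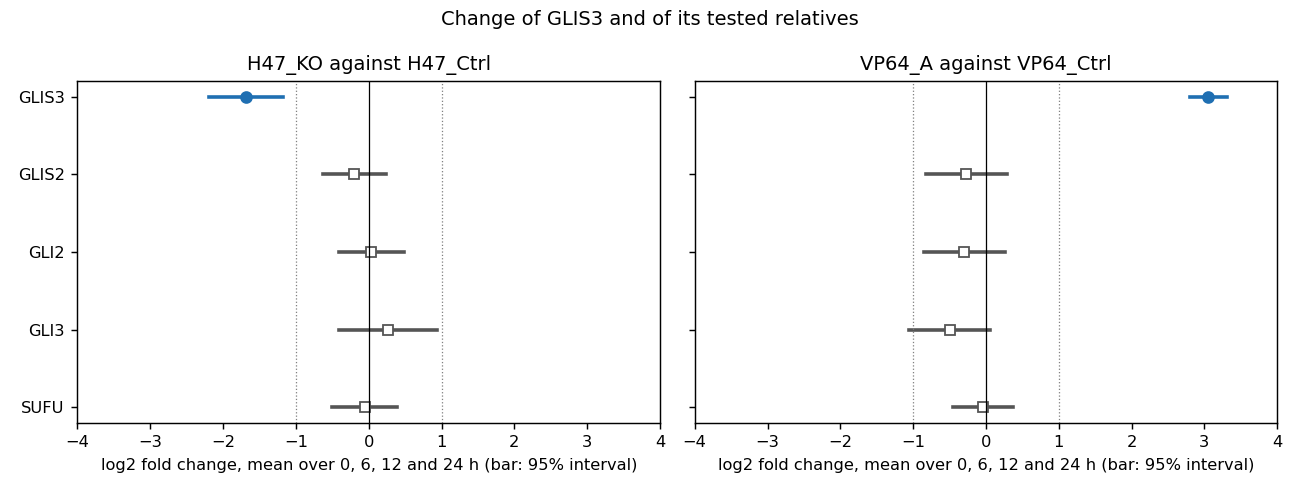
Log2 fold change of GLIS3 and of the 4 other tested members, mean over 0, 6, 12 and 24 h, with 95% intervals, for H47_KO against H47_Ctrl (left) and VP64_A against VP64_Ctrl (right). Filled points passed edgeR's adjusted p under 0.05. GLIS3 lies at -1.68 and 3.05, and the intervals of the 4 other members all include 0.

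The other members of the family were also summed. GLIS1 and GLIS2 together averaged 1.66 ± 0.83 TPM (SD, 12 libraries) in H47_Ctrl and 1.51 ± 0.60 in H47_KO, and 1.23 ± 0.74 in VP64_Ctrl and 1.11 ± 0.61 in VP64_A. The 3 GLI factors together averaged 1.25 ± 0.37 and 1.52 ± 1.02 TPM in the CRISPRko arm, and 1.41 ± 0.89 and 0.872 ± 0.356 under CRISPRa. These SDs include the time course. Within a time, the libraries of the groups did not overlap in 3 of the 16 comparisons of a sum. How often 3 libraries separate from 3 over all genes was not counted. In the CRISPRko arm GLIS1 and GLIS2 together ranged from 1.15 to 1.66 TPM in H47_Ctrl and 1.68 to 1.97 in H47_KO at 0 h. The GLI sum there ranged from 0.777 to 1.36 TPM in H47_Ctrl and 1.53 to 2.56 in H47_KO at 24 h. In the CRISPRa arm the GLI sum separated at 24 h in the other direction, at 2.10 ± 0.086 TPM in VP64_Ctrl and 0.782 ± 0.419 in VP64_A (SD, 3 libraries), and stood at 2.22 ± 0.85 and 0.974 ± 0.332 at 0 h. The sums were not tested, so these separations are not read as results about the family. GLIS3 made up on average 20.3% of the 6 zinc finger transcripts in H47_Ctrl, 8.35% in H47_KO, 25.7% in VP64_Ctrl and 73.8% in VP64_A. These shares follow largely from GLIS3 itself and carry no test.

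**Figure D3:**
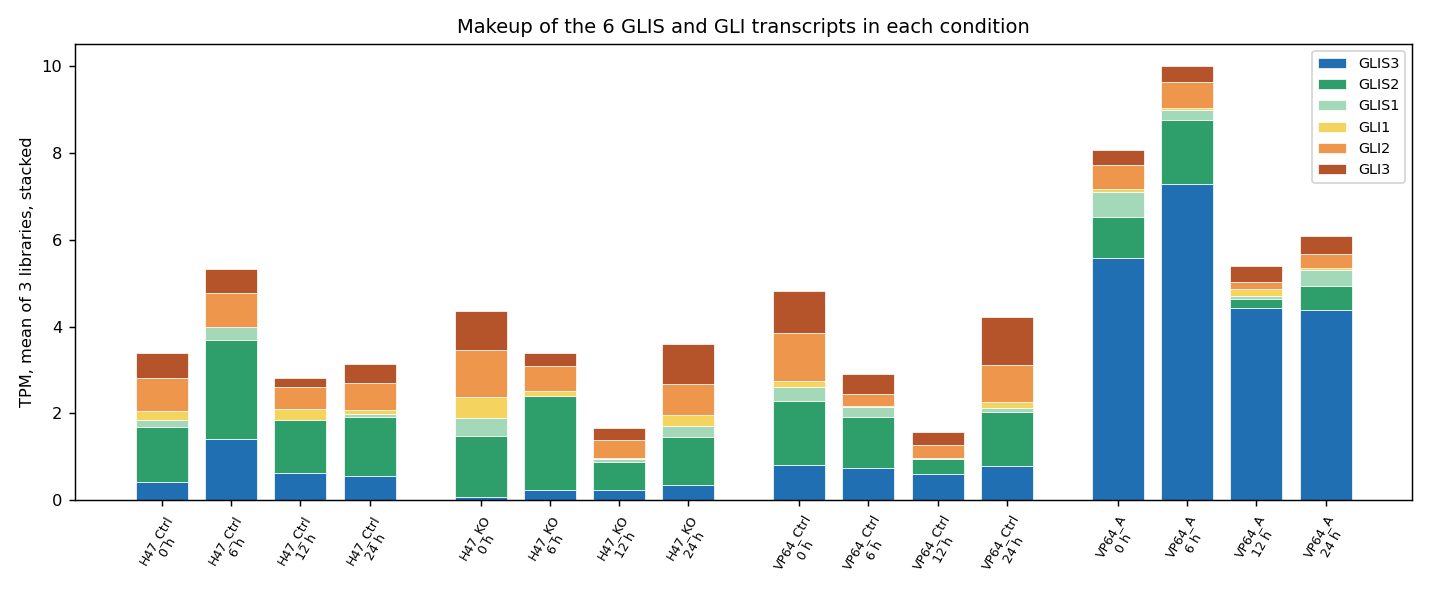
Mean TPM of the 6 GLIS and GLI transcripts, stacked, in each of the 16 conditions (3 libraries each). GLIS3 averages 73.8% of the total over the VP64_A libraries and 8.35% over the H47_KO libraries.

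Over the cytokine time course, calls were made for GLIS3, GLIS2 and GLI2. Of the members tested, GLIS3 was called higher at 24 h than at 0 h in H47_KO, and 0 members were called in H47_Ctrl, VP64_Ctrl and VP64_A, where the number with an unadjusted p under 0.05 was also 0. The shares of all genes called at 24 h were 10.3% in H47_Ctrl, 15.8% in H47_KO, 16% in VP64_Ctrl and 13.6% in VP64_A. In H47_KO the GLIS3 log2 fold change was 2.08 ± 0.57 (SE; edgeR adjusted p = 0.00984), from a mean of 0.298 to 1.30 normalized CPM. It lost its call without 1 of the 0 h libraries (log2 fold change 1.76) or without 1 of the 24 h libraries (1.81). The call was also lost under 2 of 6 other settings, and it rests on between 1 and 3 counts per library at 0 h. In H47_Ctrl the change was 0.70 ± 0.45 (adjusted p = 0.425) and in VP64_Ctrl 0.57 ± 0.29 (adjusted p = 0.189).

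The earlier times were compared with 0 h after the data had been seen. At 6 h GLIS3 was higher by a log2 fold change of 1.49 ± 0.42 (SE) in H47_Ctrl (edgeR adjusted p = 0.0126), by 2.24 ± 0.64 in H47_KO (adjusted p = 0.00999) and by 1.07 ± 0.29 in VP64_Ctrl (adjusted p = 0.00602). In VP64_A it stood at 0.32 ± 0.20 (adjusted p = 0.281). The background was high at this time, since 15.9% of genes were called in H47_Ctrl, 23.9% in H47_KO, 28.8% in VP64_Ctrl and 17.4% in VP64_A. In normalized CPM the H47_Ctrl libraries went from 2.03, 1.45 and 2.16 at 0 h to 6.47, 4.78 and 4.42 at 6 h, with no overlap. The call in H47_Ctrl was lost without the second library at 0 h (1.33) or the first at 6 h (1.31), and that in VP64_Ctrl without the second library at 6 h (0.79). Under other settings the call was lost in 2 of 7 in H47_Ctrl, 2 of 6 in H47_KO and 3 of 7 in VP64_Ctrl. On TPM, limma gave -0.036 and -0.029 for VP64_Ctrl at pseudocounts of 1 and 0.1, the opposite sign, while the median of all genes there shifted to -0.65 and -0.81.

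GLIS2 fell at 12 h in both groups of the CRISPRa arm. In VP64_Ctrl it went from 2.73, 2.15 and 2.84 normalized CPM at 0 h to 0.395, 1.64 and 0.568 at 12 h (log2 fold change -1.48 ± 0.55 SE, edgeR adjusted p = 0.0446). In VP64_A it went from 2.92, 1.63 and 2.14 to 0, 0.847 and 0.938 (-1.66 ± 0.58, adjusted p = 0.0404). The libraries of 0 h and 12 h overlapped in neither group. At 24 h GLIS2 was back at 2.54, 2.27 and 3.96 in VP64_Ctrl and at 1.31, 1.72 and 1.90 in VP64_A. Both 12 h calls were close to the threshold. That in VP64_Ctrl was lost in 4 of the fits that left out 1 library (log2 fold change -1.44 to -1.10). The log2 fold change there stood at -2.41 without the second library at 12 h. The call in VP64_A was lost in 5 such fits (-1.99 to -1.34). Of 7 other settings tried, 3 lost the call in VP64_Ctrl and 2 that in VP64_A.

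In the CRISPRko arm GLIS2 was highest at 6 h, at a mean of 5.19 normalized CPM in H47_Ctrl and 6.69 in H47_KO against 2.80 and 3.29 at 0 h, but these rises were not called (adjusted p = 0.132 and 0.0628). At 12 h GLI2 fell in H47_KO, from 4.07, 4.33 and 4.48 to 1.77, 2.64 and 1.57 normalized CPM (log2 fold change -1.07 ± 0.41, edgeR adjusted p = 0.0490), and lost the call in 5 fits that left out 1 library (-1.11 to -0.95) and under all 7 other settings tried. GLIS3 was higher at 12 h in H47_KO (2.04 ± 0.59, edgeR adjusted p = 0.00943). It lost the call without the second library at 0 h (1.72) and under 2 of 6 other settings. At 12 h 19.6% of genes were called in H47_Ctrl, 27.4% in H47_KO, 26.8% in VP64_Ctrl and 19.7% in VP64_A.

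PTCH1 was called in a single comparison, only without the filter on low counts: in VP64_Ctrl it went from 6, 0 and 16 counts at 0 h to 0 in all 3 libraries at 6 h (edgeR adjusted p = 0.0295). Without the filter 3131 of 17640 genes were called in that comparison. A count of 0 in 1 of the 3 libraries at 0 h overlapped with those at 6 h, and the 16 came from the library that stood apart.

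Whether the perturbation changed these time courses was tested directly. The difference of the time course between H47_KO and H47_Ctrl was called for 0 members (0.0365% of all genes), and that between VP64_A and VP64_Ctrl for 0 members (0.428% of all genes). No member had an unadjusted p under 0.05 in either test. DESeq2 called 0 in the CRISPRa arm and gave no adjusted p for a member in the CRISPRko arm. The edgeR adjusted p for GLIS3 was 0.728 and 0.615, so the calls made in some groups and not in others are not shown to differ between them.

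**Figure D4:**
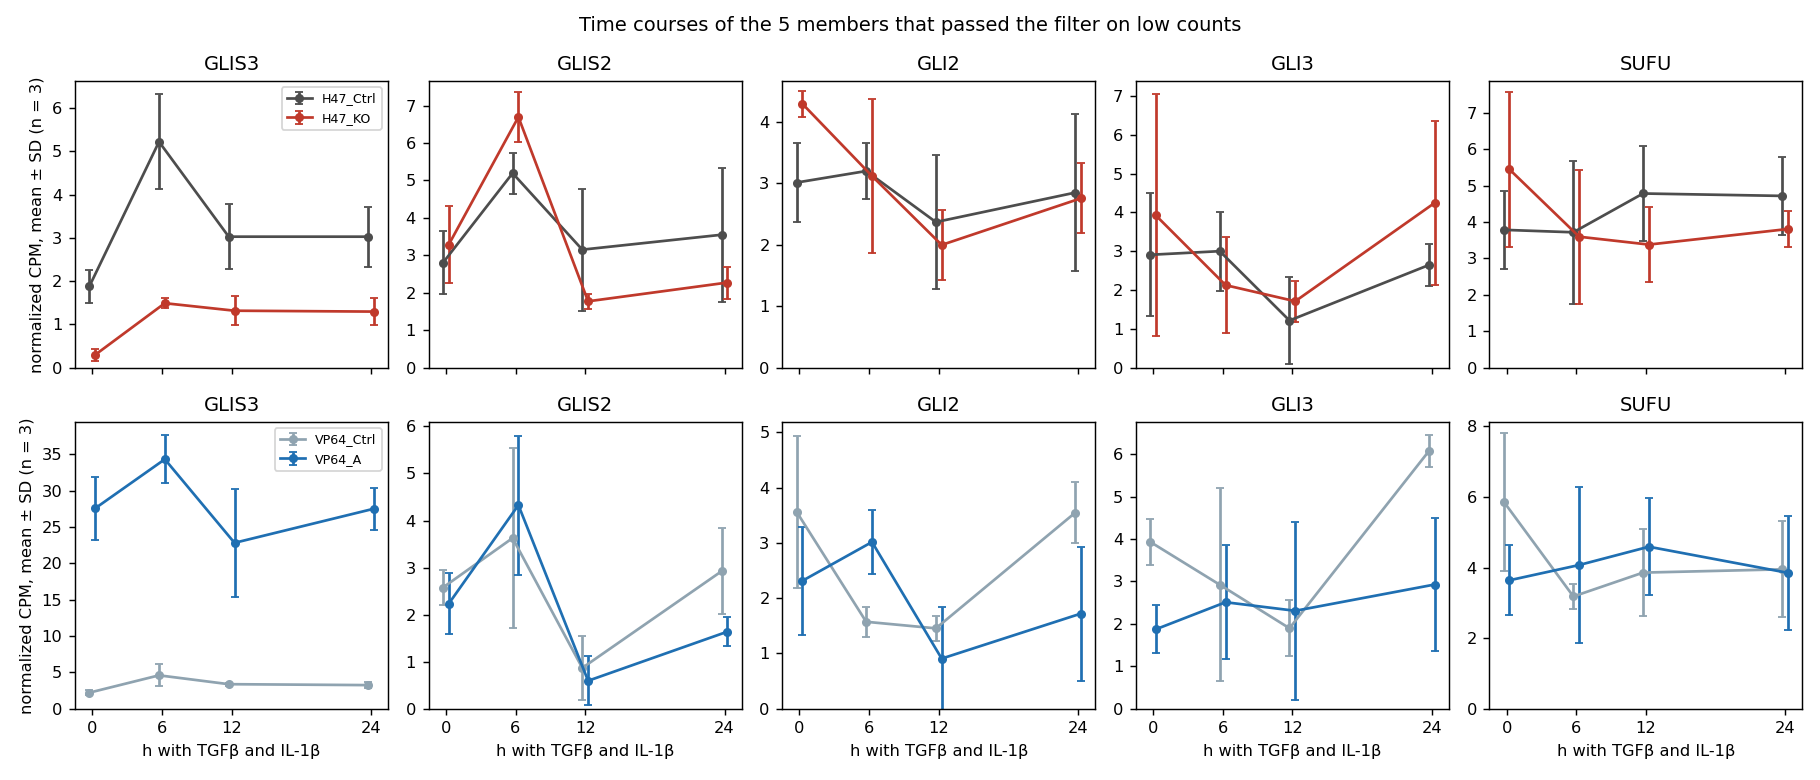
Normalized CPM of the 5 tested members against hours with cytokines, for H47_Ctrl and H47_KO (top) and VP64_Ctrl and VP64_A (bottom), with points and lines for the mean of 3 libraries and bars for the SD. GLIS3 in H47_Ctrl rises from a mean of 1.88 at 0 h to 5.22 at 6 h, and GLIS2 falls at 12 h to means of 0.868 in VP64_Ctrl and 0.595 in VP64_A.

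The rest of the Hedgehog pathway was taken from lists of its parts. Upstream, the ligand genes SHH and DHH were at 0 in all 48 libraries and IHH had 1 count in 1 library. Of 8 ligand and release genes 3 passed the filter. SCUBE3, a secreted protein that helps release Hedgehog ligand and also acts in TGFβ signalling, was 1.53-fold higher in H47_KO over the 4 times (log2 fold change 0.61 ± 0.12 SE, edgeR adjusted p = 0.00239). Its medians were 2.01 TPM in H47_Ctrl and 3.21 in H47_KO, with ranges of 0.820 to 6.12 and 1.36 to 5.87 that overlapped across times. In VP64_A it stood at -0.52 ± 0.19 (adjusted p = 0.0551), just short of the call, and it passed there with DESeq2, without the filter and on TPM. On TPM the H47_KO call was lost (adjusted p = 0.333 and 0.247 at pseudocounts of 1 and 0.1).

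Among coreceptors, which present ligand to PTCH1, BOC was the only one of 5 to pass the filter. It rose 1.35-fold in VP64_A (0.44 ± 0.12, edgeR adjusted p = 0.0105) and stood at -0.10 ± 0.16 in H47_KO (adjusted p = 0.817). The call in VP64_A was lost on TPM. Of 25 tested intracellular regulators (kinases, ubiquitin ligase parts, ciliary transducers) 0 were called in H47_KO, where 3.07% of all genes were called, 3 had an unadjusted p under 0.05 and DESeq2 called 0 of the 22 to which it gave an adjusted p, with a median log2 fold change of 0.067 against -0.0085 over all genes. In VP64_A 1 fell, EVC, a ciliary protein that works with SMO (-0.62 ± 0.18, adjusted p = 0.0131; lost on TPM at a pseudocount of 0.1), against 18.4% of all genes called, and the median was -0.032 against -0.0037.

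Of 20 tested genes of the primary cilium, the organelle on which the pathway runs, 0 were called in H47_KO, against 3.07% of all genes. There 1 had an unadjusted p under 0.05, DESeq2 called 0 of the 16 to which it gave an adjusted p, and the median was -0.076. In VP64_A 2 rose, the cilium motor KIF3B (0.31 ± 0.11, edgeR adjusted p = 0.0391) and the transport protein IFT172 (0.57 ± 0.18, adjusted p = 0.0208), and the median was 0.039. Neither was called on TPM, and KIF3B lost its call in 15 of the fits that left out 1 library (0.26 to 0.31) and IFT172 in 2 (0.46 and 0.51). The 2 of 20 compare with 18.4% of all genes called in VP64_A.

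Of 18 known target genes of GLI factors, 10 could be tested under CRISPRko and 8 under CRISPRa. In H47_KO 1 of 10 tested was called, where 3.07% of all genes were: SFRP1, a secreted WNT antagonist, was 0.365-fold of control (log2 fold change -1.45 ± 0.16 SE, edgeR adjusted p = 4.26e-07), with medians of 5.09 TPM in H47_Ctrl and 1.68 in H47_KO. At 0 h SFRP1 averaged 25.2 ± 5.6 normalized CPM in H47_Ctrl and 7.82 ± 2.11 in H47_KO (SD, 3 libraries). Its ranges there, 20.7 to 31.6 and 5.66 to 9.87, did not overlap. By single times SFRP1 was called at 0, 6 and 12 h (log2 fold change -1.68, -1.49 and -1.66) and not at 24 h (-0.99 ± 0.32, edgeR adjusted p = 0.266), and its time course was not shown to differ between the groups (adjusted p = 0.795). In VP64_A 3 of 8 tested were called, where 18.4% of all genes were: WNT5A, a WNT ligand of fibroblasts, was higher (0.88 ± 0.15, adjusted p = 6.95e-05), and the growth factor gene BMP4 (-1.47 ± 0.34, adjusted p = 0.00226) and the cyclin gene CCND1 (-0.48 ± 0.11, adjusted p = 0.00238) were lower. Without the third VP64_A library at 12 h BMP4 stood at -2.20. WNT5A, BMP4 and CCND1 are also controlled by other pathways. No target gene was called in the mean over times of both arms. Whether the change of SFRP1 ran through a GLI factor was not tested. The classical readouts PTCH1, HHIP and GLI1 did not pass the filter in either arm.

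The genes around and related to the GLIS3 locus were checked because an activator at the promoter can reach neighbours. Of GLIS3-AS1, SLC1A1, RFX3 and SPATA6L, the 4 found in the tables, SLC1A1, a glutamate transporter gene, alone passed the filter. It stood at 0.06 ± 0.16 in H47_KO (edgeR adjusted p = 0.908) and 0.43 ± 0.17 in VP64_A (adjusted p = 0.0783), with medians of 2.49 TPM in VP64_A and 1.99 in VP64_Ctrl. The tissue targets of GLIS3 in beta cells and thyroid, INS, NEUROG3, MAFA and SLC5A5, were at 0 in all 48 libraries, and SLC26A4, an anion transporter of the thyroid, had 44 counts in 21 of 48 and at most 0.927 TPM. Of related zinc finger genes ZIC2 and ZIC5 were at 0 in all 48 libraries, ZIC1 had 27 counts in 14 and ZIC4 16 counts in 7.

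The cells carried the markers of the labelled type. All 10 fibroblast markers passed the filter in both arms. They summed to medians of 27685, 24274, 25248 and 20025 TPM in H47_Ctrl, H47_KO, VP64_Ctrl and VP64_A. Most of this was VIM, with medians of 20314.6, 17568.5, 17341.3 and 13483.3 TPM, so the sum mainly reflects that gene. All 5 early genes of TGFβ or IL-1β signalling rose from 0 to 24 h in each group and were called. Their median log2 fold changes were 2.95, 2.67, 3.48 and 4.09 in the same order of groups. The shares of all genes called at 24 h, in that order, were 10.3%, 15.8%, 16% and 13.6%. Over the times 2 of the 5 were lower in VP64_A, against 18.4% of all genes called: SMAD7 (-0.66, call lost in 2 fits that left out 1 library) and NFKBIA (-0.30, lost in 15). In H47_KO 0 of 5 were called, against 3.07% of all genes, and 0 had an unadjusted p under 0.05. In the time-course difference edgeR called 0 of 5 in either arm, against 0.0365% of all genes under CRISPRko and 0.428% under CRISPRa. Some of the markers differed with the perturbation. In H47_KO 3 of 10 fibroblast markers were called, against 3.07% of all genes, DCN (-1.30) and COL3A1 (-0.61) lower and S100A4 (0.70) higher. In VP64_A 9 of 10 were called, against 18.4% of all genes, with COL1A1 (1.14), COL1A2 (0.90), COL3A1 (0.83), PDGFRB (0.38) and FAP (0.22) higher and S100A4 (-1.13), LUM (-0.82), THY1 (-0.52) and DCN (-0.41) lower. The PDGFRB and FAP calls were lost on TPM. The FAP call was also lost without the filter and in 13 fits that left out 1 library (log2 fold change 0.19 to 0.22) and the COL3A1 call in H47_KO in 3 (-0.58 to -0.56). The remaining marker, VIM, was not called in either arm.

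Markers of other cell types were also followed. Of 7 epithelial markers (EPCAM, CDH1, KRT5, KRT14, KRT8, KRT18 and KRT19) the sum had medians of 1461, 1345, 1250 and 3798 TPM in H47_Ctrl, H47_KO, VP64_Ctrl and VP64_A, nearly all of it KRT18. In VP64_A, where 18.4% of all genes were called, all 3 tested rose, KRT14 (log2 fold change 2.80), KRT18 (1.52) and KRT8 (0.41; lost on TPM), while EPCAM was at 0 in all 48 libraries and CDH1 had 13 counts in 12 of 48 libraries. The part of this change in the CRISPRa results was not tested. Of 6 immune markers, among them PTPRC, CD68, CD14, CD3E and LYZ, only CD68 passed the filter, a lysosomal protein that fibroblasts also express. It was called in both arms, against 3.07% and 18.4% of all genes, higher in H47_KO (0.68) and lower in VP64_A (-0.76), with CD3E and LYZ at 0 throughout. The immune sum, nearly all CD68, had medians of 19.2, 31.4, 40.2 and 20.2 TPM in H47_Ctrl, H47_KO, VP64_Ctrl and VP64_A. Of 5 smooth muscle and pericyte markers (MYH11, DES, CNN1, RGS5 and CSPG4) 0 of 3 tested were called in H47_KO, against 3.07% of all genes. In VP64_A, against 18.4%, CNN1 rose (1.93) and CSPG4 fell (-0.87), with summed medians of 38.9 TPM in VP64_Ctrl and 26.8 in VP64_A. The endothelial markers PECAM1, VWF, CDH5, KDR and CLDN5 summed to a median of at most 0.208 TPM in any group, and 0 of 5 passed the filter.

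The genes whose pattern was most like that of GLIS3 were not its relatives. Over the 16 condition means, as log2 normalized CPM centred within each arm, the 5 of 10691 genes tested in both arms with the highest Pearson r to GLIS3 were MYH10 (0.917), CPZ (0.910), MEGF6 (0.908), PRPS1 (0.900) and TGFBI (0.896). The relatives stood at 0.035 for GLIS2, -0.28 for SUFU, -0.34 for GLI2 and -0.43 for GLI3. SUFU, the most abundant relative, was most like HECTD3 (0.831), RPRD2 (0.829), NR2F6 (0.826), ITFG2 (0.825) and HEATR3 (0.823). The points share libraries, depth and normalization, and the pattern of GLIS3 is dominated by the difference between VP64_A and VP64_Ctrl, so these values are descriptions without a test.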

How the data were processed

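RNA of 48 libraries (4 groups of cells, 4 times, 3 libraries each) was analysed from the gene tables of the study. The authors trimmed reads with Trim Galore, removed ribosomal RNA, aligned to GRCh38 with STAR and quantified with Salmon; versions, annotation and counting strand are not given in the sources used here. They deposited estimated counts, of which 6.38% were not whole and which were rounded here, and TPM, scaled for length and to 1 total per library.

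The 24 libraries (8 groups) of each arm entered 1 fit in edgeR 4.0.16 under R 4.3.3 (TMM, filterByExpr with a minimum count of 10 and a minimum total of 15, two-sided quasi-likelihood F test), over all genes tested. A call is a Benjamini-Hochberg adjusted p under 0.05. SE is the log2 fold change over the square root of F, and 95% intervals use the t distribution of the fit. Intervals are per gene, not adjusted. Normalized CPM use TMM library sizes, and pooled CPM the library totals. Alternatives were DESeq2 1.42.0, its size factors in edgeR, a replicate block, no filter, limma 3.58.1 with TPM at log2 after adding 1 or 0.1, a fit of just the compared groups, and each library left out. Guide matches next to an NGG motif were sought on either strand of GRCh38. The fits were tested on simulated counts. Among 48 replicate pairs, 0 held identical values, and every pair differed beyond sampling noise.

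The members and all gene lists were chosen with earlier results of these data known, and the comparisons of 6 and 12 h with 0 h, and the alternatives for the other lists, were added after seeing the data. All members are named, with at most 5 genes per other list and comparison by lowest p in the mean over times, the marker and GLIS3 locus lists in full except for items not reported here, and the 5 genes most like GLIS3 and most like its most abundant relative. Symbols absent from the tables, among them GLIS3-AS2, were not analysed here.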

Additional observations from a re-analysis of the deposited data

How the results depend on the processing

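The calls of GLIS3 over the 4 times held in both arms under every alternative that gave an adjusted p, DESeq2 size factors, no filter on low counts, the replicate block, limma on TPM and each library left out, and DESeq2 for VP64_A. DESeq2 gave no adjusted p for GLIS3 in H47_KO (log2 fold change -1.72). The count of the 4 other tested members called stayed at 0 in all 10 comparisons of a perturbation. The count of members whose time course differed stayed at 0 in both arms. In CRISPRko, however, DESeq2 gave an adjusted p to 2 of the 4 in the mean over times and at 24 h. It gave one to 0 at the other times and in the time-course test, so its 0 there says little. The changes from 0 h were less stable. At 12 h in H47_KO (2 members called) DESeq2 size factors, DESeq2, no filter and the replicate block called 1, limma on TPM called 0, and a fit of only the libraries compared called 0 but could not test GLIS3, which did not pass the filter there. At 24 h in H47_KO (1 called) limma on TPM called 0, and the fit of only those libraries also shows 0 because GLIS3 was not tested in it. At 6 h in H47_KO (1 called) DESeq2 called 2, limma on TPM 0 and the fit of only those libraries, which did not test GLIS3, called GLIS2 in its place, and in H47_Ctrl (1 called) no filter and limma at a pseudocount of 0.1 called 0. At 12 h in VP64_Ctrl (1 called) DESeq2 called 2, and no filter and the replicate block 0. Limma called 4 and 2 there at pseudocounts of 1 and 0.1. The fit of only those libraries called GLI2 in place of GLIS2. Over all genes DESeq2 called 2966 of 10980 in this comparison, and limma 4711 and 4305. At 6 h in VP64_Ctrl (1 called) no filter and limma called 2 and the fit of only those libraries 0. No filter called 3131 of 17640 genes at that time, and limma 6177 and 5935 of 10980. Such counts are not read as results about the members. At 12 h in VP64_A (1 called) limma at a pseudocount of 1 and the fit of only those libraries called 0. With 1 library left out, the counts ranged from 0 to 1 at 6 h in H47_Ctrl and VP64_Ctrl, 12 h in VP64_A and 24 h in H47_KO, and from 0 to 2 at 12 h in H47_KO and VP64_Ctrl. The causes were not tested.

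Some values changed sign, among them 1 called change, that of GLIS3 at 6 h in VP64_Ctrl. GLI3 at 24 h in H47_KO became -0.0037 with DESeq2 size factors and -0.011 without the filter. GLI2 at 24 h in VP64_Ctrl became -0.0032 with size factors, -0.0033 with DESeq2, -0.0039 without the filter, -0.0034 with the replicate block and -0.0013 with only those libraries. The others came from limma on TPM (pseudocounts of 1 and 0.1), which shifted the median of all genes by over 0.1 in most changes from 0 h, to -0.65 and -0.81 at 6 h, -0.51 and -0.63 at 12 h and -0.32 and -0.38 at 24 h in VP64_Ctrl. There GLIS3 became -0.036 and -0.029 at 6 h and -0.14 and -0.23 at 12 h, GLIS2 -0.20 and -0.38 at 6 h and -0.13 and -0.22 at 24 h, and GLI2 -0.18 and -0.31 at 24 h. In H47_Ctrl GLIS2 became -0.041 and -0.10 at 12 h and GLI2 -0.12 and -0.32 at 24 h, and in VP64_A SUFU became -0.15 and -0.30 at 24 h. With 1 library left out, log2 fold changes that crossed 0 ranged over the times from -0.051 to 0.14 for GLI2, -0.15 to 0.049 for SUFU and -0.0081 to 0.15 for SLC1A1 in H47_KO and from -0.17 to 0.045 for SUFU in VP64_A. For GLIS2 they ranged from -0.20 to 0.52 at 12 h and -0.13 to 0.49 at 24 h in H47_Ctrl and -0.10 to 0.35 at 24 h in VP64_Ctrl. At 24 h they ranged for GLI2 from -0.22 to 0.27 in H47_Ctrl, -0.22 to 0.36 in VP64_Ctrl and -0.64 to 0.036 in VP64_A, for GLI3 from -0.42 to 0.80 in H47_KO, and in VP64_A for GLIS3 from -0.11 to 0.10 and for SUFU from -0.11 to 0.37.

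For libraries with the same replicate number the mean correlation of deviations was 0.0065 for CRISPRko and 0.022 for CRISPRa (lowest -0.24 and -0.14), against -0.0032 and -0.011 for different numbers, and 10 and 14 of 24 libraries correlated best with their own number, a hint of pairing from the data of CRISPRa. Not every pair exceeded 0.1, so the numbers were not taken to pair the libraries, and the replicate block is given here only. With it SCUBE3 in VP64_A passed (-0.55, edgeR adjusted p = 0.0371), and GLIS3 in H47_KO over the times was -1.70. A fit of only the libraries compared was not run for the means over times and the time-course differences, which use all 8 groups of an arm. The counts of 1 to 21 for GLIS3 in H47_KO and under 20 for most other members per library limit the precision throughout.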
